A study of Mus musculus with 4 samples.

Results

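The genes described here are 10 genes whose mutations cause inherited neuropathy and whose products act outside compact myelin, namely Sh3tc2, Litaf, Ndrg1, Mtmr2, Sbf2, Fig4, Fgd4, Mfn2, Gdap1 and Lmna. They were chosen by symbol, and all 10 were found among the 50593 genes of the sciatic nerve table. RNA had been sequenced from sciatic nerves of mice of strain 129S1/SvImJ aged 6 months, 2 libraries labelled HSF V30M TTR and 2 labelled HSF WT TTR. Both groups are heterozygous for a deletion of Hsf1, which encodes a heat shock transcription factor, and HSF V30M mice in addition carry human transthyretin (TTR) with the V30M mutation and lack endogenous mouse TTR. The promoter that drives the transgene is not given in the sources used here. The authors' table holds 1 pooled FPKM (fragments scaled to transcript length and library size) per gene and group, so the spread between mice is unknown and no test between groups was made for any value.

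Charcot-Marie-Tooth disease and related inherited neuropathies arise from mutations in many genes, some of which encode structural proteins of the myelin sheath. The genes considered here instead serve membrane trafficking, phosphoinositide turnover, the actin cytoskeleton, mitochondria or the nuclear lamina. Schwann cells, which must supply large sheets of membrane to the myelin they maintain, and axons, which depend on mitochondria far from the cell body, are the cells in which these functions are thought to matter most. Whole nerve also holds fibroblasts, perineurial, endothelial, immune and fat cells, so for every gene below a smaller share of a cell type and less RNA per cell cannot be told apart.

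The nerve identity of the libraries was plain from the marker genes of myelinating Schwann cells, of which all 9 were measured and none was at 0. Hsf1 reached 7.94 FPKM in HSF V30M nerve against 14.95 in HSF WT nerve, although the deletion is shared by the groups. Mouse Ttr had 6.10 in the group labelled HSF V30M, whose own Ttr is null, and stood at 0 in the libraries labelled HSF WT, where the limit allowed by 3 fragments is 0.197. Reads of the human transgene are not separated from those of mouse Ttr in this table. Ttr therefore does not check the labels, and each direction below is that of the groups as labelled. Most low FPKM values lay near sums of what 1 fragment of each library is worth. These worths were read from low values of the same genes, so the match is no independent check of them. By the estimated worths, the 2 HSF V30M libraries differed 1.18-fold and the 2 HSF WT libraries 1.35-fold in depth.

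Transcripts of 9 of the 10 genes were plainly present, and 1 of them was past the fold of 1.5 used below. Sh3tc2 had 1.83 times the FPKM in the group labelled HSF V30M that it had in the group labelled HSF WT, and Mtmr2 had 1.39 times. The other 7 measured genes lay between 0.875 times for Fig4 and 1.21 times for Litaf. Counted on its shortest transcript, Gdap1 was at the limit of detection in both groups.

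**Figure D1:**
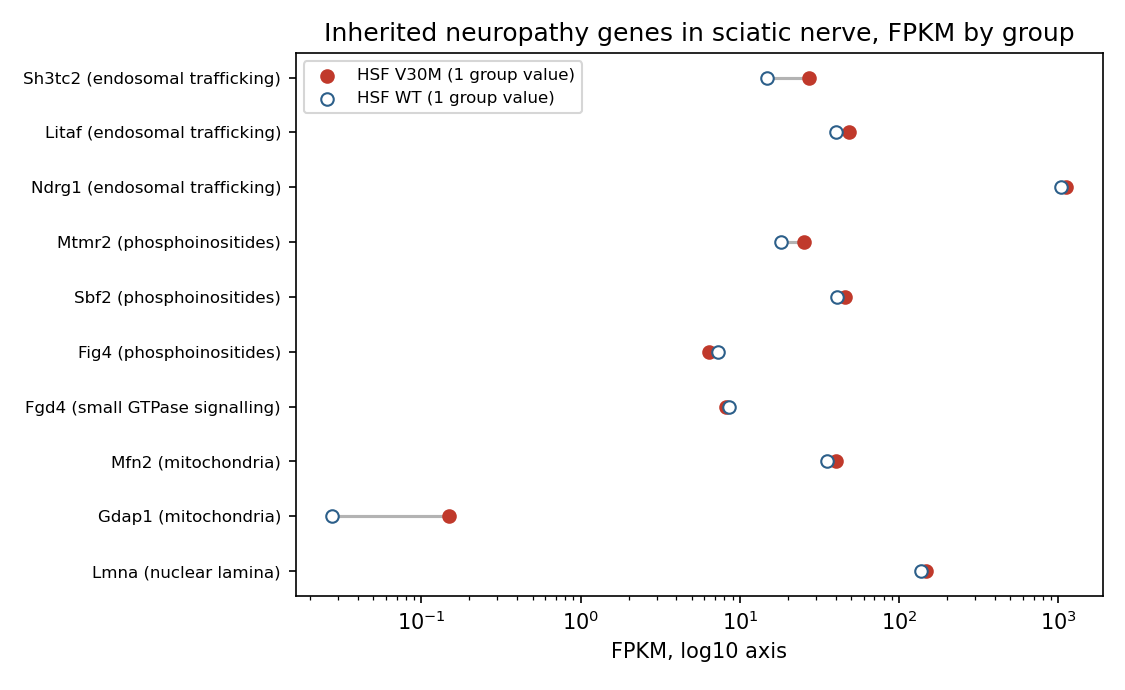
FPKM of the 10 genes in HSF V30M nerve (filled) and HSF WT nerve (open) on a log10 axis, 1 pooled value per group and no error bar because values per mouse are not given. The levels span from under 1 for Gdap1 to 1114 for Ndrg1, and the longest line among the expressed genes is that of Sh3tc2, from 14.9 to 27.2.

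Differences are given below as the log2 ratio of (HSF V30M FPKM + 1) over (HSF WT FPKM + 1), a scale on which the change of low genes is understated, whereas folds and ratios between genes are taken from the FPKM as deposited. A gene was counted as past the fold when this ratio corresponded to a fold of at least 1.5 and the mean FPKM of the groups was at least 1. Of the 10 genes, 9 passed the minimum, and of these 1 was past the fold in the higher direction and 0 in the lower. Among all 15620 genes whose mean FPKM was at least 1, 8.22% were past the fold in the higher direction and 8.44% in the lower. A share of 11.1% of the 9 members against 16.7% of all genes is no result about the list as a whole. With a threshold of only 0.32 on the log2 scale, Sh3tc2 and Mtmr2 were past it, beside 18.4% of all genes higher and 17.7% lower, and with a fold of 2 no member was, beside 3.98% higher and 3.94% lower. The median log2 ratio of the 9 members was 0.16, and that of all genes was 0.00. The ratio was above 0 in 7 members and below 0 in Fgd4 and Fig4, while 50.4% of all genes had a ratio above 0.

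**Figure D2:**
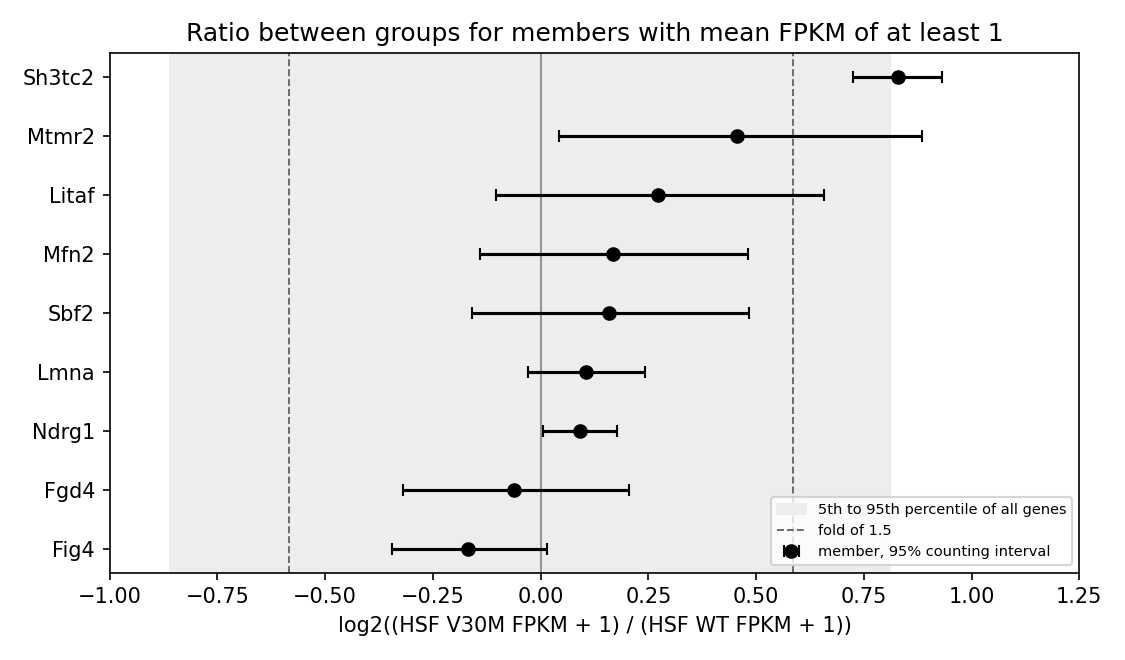
Ratio of the groups (HSF V30M over HSF WT, log2 of FPKM + 1) for the 9 genes whose mean FPKM was at least 1, with 95% counting intervals, which do not cover the spread between mice. The grey band holds the middle 90% of all genes, dashed lines mark a fold of 1.5, and Sh3tc2 at 0.83 is the only one of the 9 beyond a dashed line.

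Of the genes of endosomal trafficking, Sh3tc2 encodes a scaffold protein of recycling endosomes that binds the small GTPase Rab11 and is made mainly by Schwann cells. Sh3tc2 (ENSMUSG00000045629) is a plus-strand gene of chromosome 18 (GRCm38), spanning bases 61953075 to 62024402 in the GENCODE M21 annotation, while its locus in the authors' table ends at 62015715. The level was 27.2 FPKM in HSF V30M nerve against 14.9 in HSF WT nerve, with a log2 ratio of 0.83. About 2524 to 3002 fragments in HSF V30M nerve against 984 to 1341 in HSF WT nerve stand behind these values, and the 95% interval of the fold of 1.83 from counting error alone was 1.70 to 1.97. Depth therefore does not limit this value, whereas the variation between mice, which the table does not give, cannot be set against it. Of all 15620 genes, 4.90% had a higher ratio, and of the 5096 genes with a mean FPKM within 2-fold of that of Sh3tc2, 5.65% were past the fold in the higher direction and 5.06% in the lower. By level, Sh3tc2 was number 3121 of 50570 genes in HSF V30M nerve against number 5409 in HSF WT nerve.

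No other annotated gene overlapped Sh3tc2 or shared its locus in the table. Its neighbour Ablim3, which encodes an actin-binding protein, reached 3.36 FPKM in HSF V30M nerve against 2.79 in HSF WT nerve, a log2 ratio of 0.20. The paralog Sh3tc1 had 4.76 and 5.48, from at least 18 and 14 fragments. The counting interval of the 0.868-fold ratio of Sh3tc1 was 0.408 to 1.89. By these values Sh3tc2 was 5.71 times as abundant as Sh3tc1 in HSF V30M nerve against 2.71 times in HSF WT nerve. Rab11a, which encodes a binding partner of the Sh3tc2 protein, had 32.0 and 29.998, with a log2 ratio of 0.09. Rab11b, the other Rab11 gene listed, went the other way, with 68.4 and 77.3 and a log2 ratio of -0.17.

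Litaf encodes a small membrane protein of late endosomes and lysosomes that takes part in the sorting of cargo for degradation. The gene (ENSMUSG00000022500) is on the minus strand of chromosome 16, from 10959275 to 11066157. The level was 48.6 FPKM in HSF V30M nerve against 40.1 in HSF WT nerve, a log2 ratio of 0.27. The counting interval of the 1.21-fold ratio, 0.929 to 1.59, takes the shortest of 5 annotated transcripts as the basis and includes 1. The annotation places Snn on the opposite strand across the upstream part of Litaf, with 32.0 and 26.9 and a log2 ratio of 0.24. Cdip1, a paralog of Litaf, had 20.6 and 19.6. Nedd4, a ubiquitin ligase that binds the Litaf protein, had 169.9 in HSF V30M nerve against 253.1 in HSF WT nerve, and its log2 ratio of -0.57 lay just short of the fold.

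Ndrg1 was the most abundant of the 10 genes. It encodes a cytoplasmic protein that is plentiful in myelinating Schwann cells and takes part in the recycling of membrane receptors. Ndrg1 (ENSMUSG00000005125), on the minus strand of chromosome 15 from 66929318 to 66969640, reached 1114 FPKM in HSF V30M nerve against 1046 in HSF WT nerve and was number 157 and number 155 among all genes by level. The log2 ratio was 0.09, and the fold of 1.07 had a counting interval of 1.0 to 1.13.

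The antisense gene Gm17035 lies within the last part of Ndrg1, and all of its 419 exonic bases fall within exons of Ndrg1. Gm17035 reached 17.9 FPKM in HSF V30M nerve against 94.6 in HSF WT nerve, a log2 ratio of -2.34. Whether the libraries or the counting kept strand is not given in the sources used here, so reads of Gm17035 and of Ndrg1 cannot be told apart in the shared bases, and the value of Gm17035 is uncertain. The values of Gm17035 stand for 85 to 100 fragments in HSF V30M nerve against 320 to 431 in HSF WT nerve, and their part in the ratio of Ndrg1 was not tested. Of the other NDRG family genes, Ndrg2 had 61.6 in HSF V30M nerve against 60.4 in HSF WT nerve and Ndrg3 had 36.9 and 36.8. Ndrg4, best known from neurons and heart, had 12.7 and 5.0, a log2 ratio of 1.19 and a fold of 2.53 with a counting interval of 1.59 to 4.17.

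Of the genes of phosphoinositide turnover, Mtmr2 encodes a phosphatase that removes a phosphate from endosomal phosphoinositides, and Sbf2 encodes a related protein without catalytic activity that binds it. Mtmr2 (ENSMUSG00000031918) is on the plus strand of chromosome 9, from 13748410 to 13806481. The level was 25.4 FPKM in HSF V30M nerve against 18.3 in HSF WT nerve, a log2 ratio of 0.46. The counting interval of the 1.39-fold ratio was 1.03 to 1.89, with the shortest of 9 transcripts as the basis, and 11.9% of all genes had a higher ratio. No annotated gene overlaps Mtmr2. Its closest relatives had almost equal values in the groups, with Mtmr1 at 4.51 in HSF V30M nerve against 4.53 in HSF WT nerve and Mtm1 at 3.34 and 3.51. On the shortest transcripts, the counting interval of the fold was 0.473 to 2.15 for Mtmr1 and 0.582 to 1.57 for Mtm1. Both intervals hold the 1.39 of Mtmr2.

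Sbf2 (ENSMUSG00000038371), on the minus strand of chromosome 7 from 110308013 to 110614922, reached 45.5 FPKM in HSF V30M nerve against 40.6 in HSF WT nerve. Its log2 ratio was 0.16 and the counting interval of its 1.12-fold ratio was 0.892 to 1.41. Of 3 processed pseudogenes within the Sbf2 locus, the highest, Gm10087, had 2.43 and 2.09. Sbf1, the paralog that also binds Mtmr2 and is itself a neuropathy gene, had 52.4 and 38.0, a log2 ratio of 0.45. The FPKM of Sbf2 was 1.79 times that of Mtmr2 in HSF V30M nerve against 2.23 times in HSF WT nerve. The ratio of Sbf2 to Sbf1 was 0.867 in HSF V30M nerve against 1.07 in HSF WT nerve, so the order of these paralogs by level was not the same in the groups.

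Fig4 encodes a lipid phosphatase that works in a complex with the kinase Pikfyve and the scaffold Vac14, which together set the level of a doubly phosphorylated phosphoinositide on endolysosomes. Fig4 (ENSMUSG00000038417) is on the minus strand of chromosome 10, from 41188172 to 41303260, and was the lowest of the 9 measured members. The level was 6.39 FPKM in HSF V30M nerve against 7.30 in HSF WT nerve, a log2 ratio of -0.17. With a single annotated transcript of 3282 bases, 427 to 502 fragments in HSF V30M nerve against 347 to 468 in HSF WT nerve stand behind these values, and the 0.875-fold ratio had a counting interval of 0.758 to 1.01. Vac14 had 11.6 and 10.7, a log2 ratio of 0.11. Pikfyve had 8.98 in HSF V30M nerve against 14.1 in HSF WT nerve, a log2 ratio of -0.60, just past the fold in the lower direction. The counting interval of the 0.636-fold ratio of Pikfyve was 0.420 to 0.960, with at least 47 and 53 fragments behind the values. The FPKM of Fig4 was 0.712 times that of Pikfyve in HSF V30M nerve against 0.517 times in HSF WT nerve.

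Fgd4 encodes frabin, an exchange factor that activates the small GTPase Cdc42 and binds actin. The gene (ENSMUSG00000022788) is on the minus strand of chromosome 16, from 16416917 to 16600549. The level was 8.13 FPKM in HSF V30M nerve against 8.53 in HSF WT nerve, a log2 ratio of -0.06, and the counting interval of its 0.953-fold ratio was 0.778 to 1.17. A processed pseudogene inside Fgd4, Gm16139, had 1.34 and 1.10. Cdc42 had 78.3 and 63.9, a log2 ratio of 0.29. None of the other FGD genes was past the fold. Fgd1 had 3.25 in HSF V30M nerve against 1.87 in HSF WT nerve, a 1.74-fold ratio of the deposited values that stays short of the fold only with the pseudocount. Fgd2 had 4.83 and 6.07, and Fgd3 had 3.46 and 4.08. Fgd5, which endothelial cells express, had 10.4 and 7.38, and Fgd6 had 1.93 and 2.15.

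Of the mitochondrial genes, Mfn2 encodes mitofusin 2, a GTPase of the outer membrane that joins mitochondria to each other, and Gdap1 encodes an outer membrane protein linked to mitochondrial division. Mfn2 (ENSMUSG00000029020), on the minus strand of chromosome 4 from 147873599 to 147904704, reached 40.0 FPKM in HSF V30M nerve against 35.5 in HSF WT nerve. Its log2 ratio was 0.17 and the counting interval of the 1.13-fold ratio was 0.904 to 1.41. Mfn1, the other mitofusin, had 28.2 and 21.3, a log2 ratio of 0.39. Mfn2 was 1.42 times as abundant as Mfn1 in HSF V30M nerve against 1.66 times in HSF WT nerve. Opa1, which fuses the inner membrane, had 13.5 and 14.3.

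Gdap1 (ENSMUSG00000025777), on the plus strand of chromosome 1 from 17145362 to 17164271, was listed at 0.150 FPKM in HSF V30M nerve against 0.0276 in HSF WT nerve. These values stand for 3 to 14 fragments and at most 2 fragments, and on the shortest transcript 3 fragments would have given 0.161 and 0.227. On the shortest transcript, a difference in Gdap1 was not detectable at this depth, and no fold is given. Whether it would be detectable on a longer transcript was not tested. Gdap1 is known mainly from neurons, and whether this bears on its low level here was not tested. Its paralog Gdap1l1 was also low, at 0.380 and 0.384.

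Lmna encodes the A-type lamins, filament proteins under the nuclear membrane that are found in most differentiated cells. Lmna (ENSMUSG00000028063) is on the minus strand of chromosome 3, from 88480147 to 88509956, and reached 147.1 FPKM in HSF V30M nerve against 136.7 in HSF WT nerve. It was the second of the 10 by level in both groups, and its log2 ratio was 0.11. The counting interval of the 1.08-fold ratio was 0.979 to 1.18. The B-type lamin genes were far lower, Lmnb1 at 3.72 and 3.43 and Lmnb2 at 4.75 and 3.82. Lmna was 39.6 times as abundant as Lmnb1 in HSF V30M nerve against 39.9 times in HSF WT nerve.

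By level, the 10 genes kept the same order in both groups apart from a pair of exchanges between neighbours. In HSF WT nerve the order was Ndrg1, Lmna, Sbf2, Litaf, Mfn2, Mtmr2, Sh3tc2, Fgd4, Fig4 and Gdap1. In HSF V30M nerve Litaf stood before Sbf2, with a ratio of Litaf to Sbf2 of 1.07 against 0.986 in HSF WT nerve. Sh3tc2 stood before Mtmr2 in HSF V30M nerve, with a ratio of 1.07 against 0.815 in HSF WT nerve. Without values per mouse it cannot be said which neighbours differ beyond their spread. Ndrg1 was 7.57 times as abundant as Lmna in HSF V30M nerve against 7.65 times in HSF WT nerve. The genes lie on 9 chromosomes, Litaf and Fgd4 both being on chromosome 16, and 4 of the 10, Sh3tc2, Mtmr2, Lmna and Gdap1, are overlapped by no other annotated gene.

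Genes that work with these products were read from 6 lists of 152 genes in all, of which 150 had a mean FPKM of at least 1. Of the 150, 2 were past the fold in the higher direction and 5 in the lower, which is 1.33% and 3.33%, and their median log2 ratio was 0.01. Among all 10205 genes whose mean FPKM was at least 5, as 132 of the listed genes have, 7.17% were past the fold in the higher direction and 6.33% in the lower. Fewer of the listed genes than of all genes were thus past the fold, which was not tested.

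Of the 25 genes of endosomal sorting and recycling, Ndrg4 was past the fold in the higher direction and none in the lower, and the median log2 ratio was -0.02. The most abundant of them, the lysosomal membrane protein gene Lamp1, reached 261.2 FPKM in HSF V30M nerve against 253.4 in HSF WT nerve. Of the 21 phosphoinositide phosphatases and kinases, 1 was higher and 2 were lower, and the median was -0.00. Inpp4b, an inositol lipid phosphatase, was the higher one, with 6.48 and 3.66. Pikfyve and Mtmr11, a myotubularin relative without catalytic activity, were the lower ones, Mtmr11 with 8.24 and 13.1. On their shortest transcripts, the counting intervals of Inpp4b, 0.783 to 4.37, and of Mtmr11, 0.384 to 1.03, included 1. Intervals on longer transcripts were not computed. The most abundant gene of the list was Sbf1.

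Of the 16 genes of small GTPases and exchange factors, none was higher past the fold and Tiam1, an exchange factor for Rac1, was lower, with 15.8 in HSF V30M nerve against 25.6 in HSF WT nerve. The median of the list was 0.04, and Rhoa, the most abundant, had 125.7 and 161.0. None of the 20 measured genes of mitochondrial fusion, fission and transport was past the fold, with log2 ratios from -0.45 to 0.42 and a median of 0.01. Fis1, an outer membrane protein of fission and the most abundant of them, had 79.7 and 93.7. None of the 17 genes of the nuclear lamina and envelope was past the fold either, with ratios from -0.30 to 0.49 and a median of 0.09, and Syne2, which links the nucleus to the cytoskeleton, had 58.8 and 61.7.

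The last list held 51 other inherited neuropathy genes, such as those of transfer RNA synthetases, small heat shock proteins and motor proteins. None was past the fold in the higher direction and 2 were in the lower, and the median log2 ratio was -0.07. Aars, the alanyl-transfer RNA synthetase, reached 15.5 FPKM in HSF V30M nerve against 23.8 in HSF WT nerve, a log2 ratio of -0.59. Dhtkd1, a mitochondrial enzyme of lysine breakdown, had 2.71 and 4.58, also a log2 ratio of -0.59, from at least 10 and 12 fragments. On the shortest transcripts, the counting interval of the fold was 0.468 to 0.895 for Aars and 0.229 to 1.49 for Dhtkd1. Prx, the periaxin of the Schwann cell membrane and the most abundant gene of the list, had 899.9 and 730.0, a log2 ratio of 0.30.

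**Figure D3:**
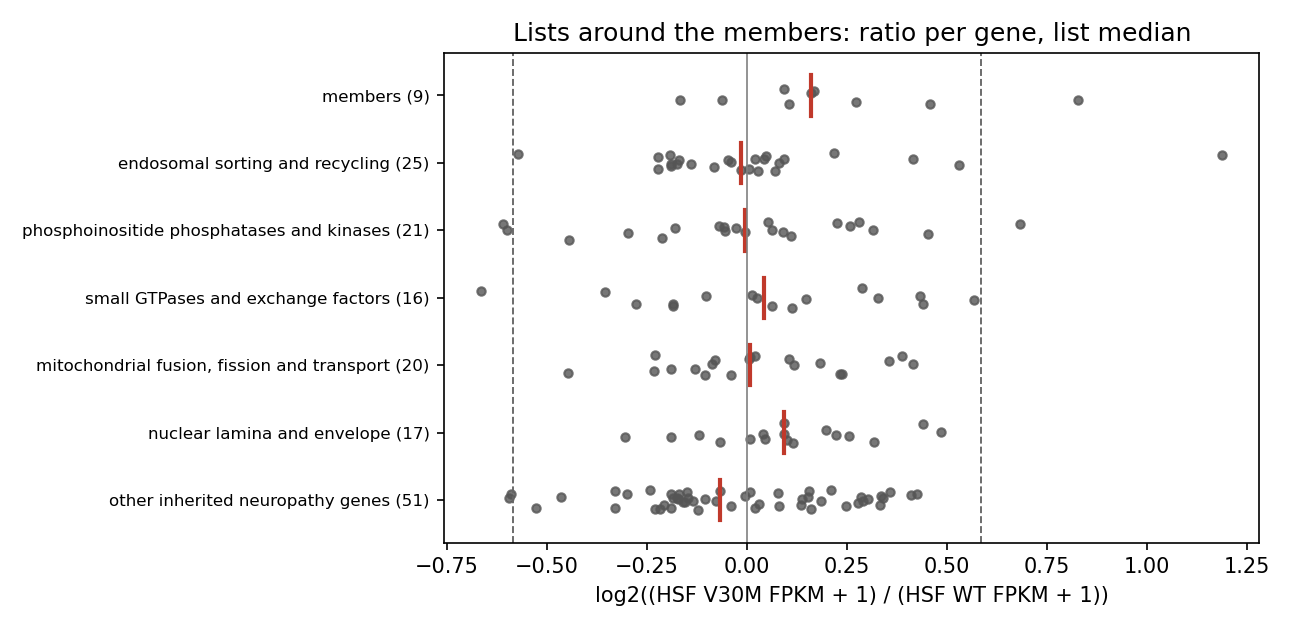
Ratio of the groups (HSF V30M over HSF WT, log2 of FPKM + 1) for each gene whose mean FPKM was at least 1 in the members and in 6 lists of related genes, the number of genes in brackets. Points are genes, red bars are list medians and dashed lines mark a fold of 1.5. The list medians lie between -0.07 and 0.09, and the point farthest to the right is Ndrg4 at 1.19.

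Marker genes of several cell types differed between the groups, and their part in the results above was not tested. Of the 9 myelinating Schwann cell markers, none was past the fold, with ratios from -0.19 to 0.45 and a median of -0.02, and their summed FPKM was 12983 in HSF V30M nerve against 11593 in HSF WT nerve. The log2 ratio of Sh3tc2, 0.83, lay above that of each of these 9 markers, of which the transcription factor gene Egr2 had the highest. It also lay above that of each of the 7 measured markers of the Schwann cell lineage, of which 1 was past the fold in the higher direction, S100b at 0.71, and 1 in the lower, Fabp7 at -1.0 with an FPKM of 0.420 and 1.84. The summed level of the 8 lineage markers was 785.6 in HSF V30M nerve against 652.7 in HSF WT nerve. In other lists, 5 neutrophil, 5 erythrocyte and 2 neuronal markers had a higher ratio than Sh3tc2. No measured marker of the remaining cell types did.

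All 7 measured skeletal muscle markers were past the fold in the lower direction, and the 10 listed ones summed to 45.8 in HSF V30M nerve against 163.6 in HSF WT nerve. All 4 measured B cell markers were lower, the 5 listed ones summing to 2.23 and 21.2, and 2 of 7 macrophage markers were lower, with sums of 208.7 and 338.2. All 5 measured neutrophil markers and 5 of 6 erythrocyte markers were higher, with sums of 101.9 and 25.1 for the neutrophil list and of 291.5 and 100.6 for the erythrocyte list. Of 7 adipocyte markers 2 were lower, with sums of 2044 and 2698, and 1 of 6 endothelial markers was higher, with sums of 209.3 and 170.9. None of the 6 fibroblast markers and none of the 4 perineurial markers was past the fold, with sums of 2206 and 2267 and of 487.4 and 414.1. Of the neuronal markers, 2 of the 3 measured were higher, and the 5 listed ones summed to 16.5 and 5.90, while Snap25, a synaptic protein gene, had 2.45 and 2.50. No listed marker of any of these types was at 0 in either group.

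**Figure D4:**
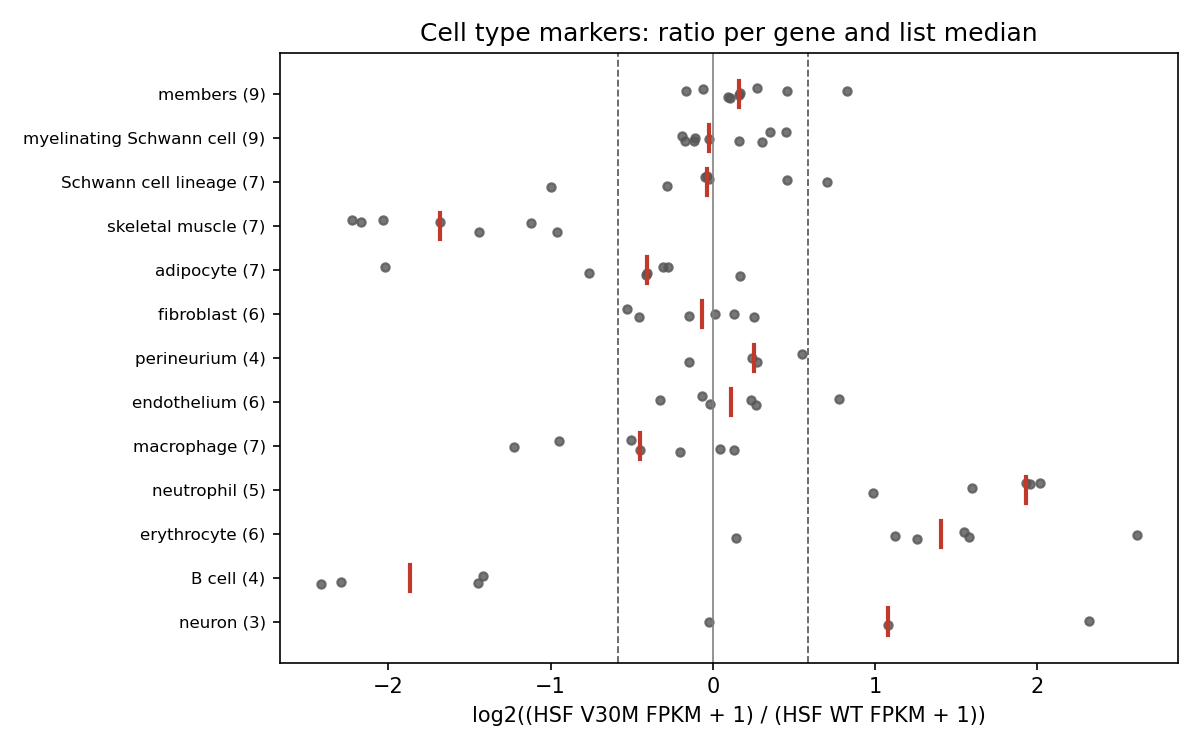
Ratio of the groups (HSF V30M over HSF WT, log2 of FPKM + 1) for the members and for the measured markers of 12 cell types, the number of genes in brackets, with red bars at the medians and dashed lines at a fold of 1.5. The myelinating Schwann cell markers lie within the dashed lines with a median of -0.02, while the skeletal muscle median is -1.68 and the neutrophil median 1.93.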

How the data were processed

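RNA of sciatic nerves was sequenced by the authors with Ion Torrent protocols, and reads were aligned to GRCm38 of strain C57BL/6J. The submitters' processing notes name STAR, Cufflinks and Cuffdiff, with versions, annotation and strand setting not given in the sources used here. The authors deposited 1 table with an FPKM for each gene and group, written with decimal commas, which were replaced by points. Column letters A and G were matched to the sample titles. The table also holds the fold change, test statistic, p-value, q-value and significance call of the authors' own comparison, which were not used.

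For 23 genes the table gives no estimate because of too many alignments, and these were dropped. Log2 ratios used a pseudocount of 1, a minimum mean FPKM of 1 and a fold of 1.5. The limma fits planned for values per mouse could not be made. The worth of 1 fragment was read from genes with 1 transcript and an unshared locus, as the commonest FPKM times length less 200 bases, giving 0.0393 and 0.0462 for the 2 HSF V30M libraries and 0.0481 and 0.0648 for the 2 HSF WT libraries. Of low values, 91.2% in HSF V30M and 98.2% in HSF WT lay within 2% of a sum of whole fragments of the 2 libraries. The worths came from low values of the same genes, so this match does not check them independently. Such sums lie closer together at higher values, and the share that would match by chance was not computed. The lowest fragment number of a value takes the shortest transcript and the larger worth, and the highest takes the opposite, over transcripts of GENCODE M21 inside the table's locus. Intervals (exact binomial, 95%, from the lowest numbers) and limits at 0 (3 fragments on the shortest transcript) cover counting error only. All 10 member identifiers matched GENCODE M21.

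Members, lists and tests were chosen with earlier results of these data known. Named are all members and, of each list, the genes past the fold, the most abundant gene, paralogs of members and the partners of Fig4. Rab11a, Rab11b, Nedd4, Cdc42, Opa1 and a neighbour of Sh3tc2 were added after values were seen. So were genes overlapping a member, single cell type markers and the comparison with genes of a level near that of Sh3tc2. Alternatives were pseudocounts of 0.1 and 0, median-of-ratios scaling, other minima and folds, and leaving out each role. The scripts were tested on simulated data. The work ran in Python 3.11.15 with matplotlib 3.10.9, pandas 2.3.3, numpy 2.4.6 and scipy 1.17.1.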

Additional observations from a re-analysis of the deposited data

How the results depend on the processing

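No paired analysis was possible because each group has a single pooled FPKM per gene, and for the same reason no replicate could be left out, nor could limma be fitted to single mice. Under pseudocounts of 0.1 and 0 and under median-of-ratios scaling, the 9 member ratios kept their side of the fold. Sh3tc2 lay between 0.83 and 0.87 and Mtmr2 between 0.45 and 0.48. Their direction was kept by construction, because a pseudocount cannot change it and the scaling factors were close to 1. Under the pseudocounts of 0.1 and 0, 3 listed genes were past the fold in the higher direction, against 2 with a pseudocount of 1. Gdap1, at the limit of detection in both groups when counted on its shortest transcript, was not compared. The median of the members was between 0.13 and 0.16 over 10 alternatives, among them each role left out in turn. The counts depend on the fold by construction. With a threshold of 0.32 on the log2 scale, 2 members were higher, and 20 listed genes were higher and 13 lower. With a fold of 2, 0 members and 1 listed gene were higher and 0 listed genes lower. The scaling factors were 1.001 for HSF V30M and 0.999 for HSF WT. Depth limits Gdap1 when it is counted on its shortest transcript, and whether it does on a longer transcript was not tested.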
